A study of Mus musculus with 4 samples.

Results

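The genes described here are those of the unfolded protein response and the integrated stress response, taken from a named set of 34 mouse genes. A member was used where a probe set of the array carried its symbol and no other, and the probe set with the highest mean stood for the gene. That left 33 of the 34 members among 22180 named genes. Pdia4, a protein disulfide isomerase of the endoplasmic reticulum (ER), is not described, because its probe set also carries the symbol of a microRNA gene. The members fall into 4 roles by textbook function: 6 sensors and transcription factors, 13 ER chaperones and folding enzymes, 6 genes of ER-associated degradation and 8 genes induced through the transcription factor ATF4, called Atf4-type targets below. The values played no part in choosing members or roles, although earlier results of these data were known.

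The cells came from breast cancer lines derived from mammary tumours of female FVB mice carrying MMTV-NIC, a transgene in which the mouse mammary tumour virus promoter drives ErbB2 and Cre recombinase from a single transcript. All 4 arrays therefore share the transgene, its Cre and a culture medium with serum, EGF, hydrocortisone, insulin and bovine pituitary extract, and differ by treatment: 2 µM GSK-126 (GSK126 below; n = 2 arrays) or the vehicle DMSO (n = 2 arrays), each for 96 hours. GSK126 inhibits EZH2, the methyltransferase that trimethylates lysine 27 of histone H3. Ages were not given, nor whether the replicates are separate lines, cultures or tumours, so the p-values reflect how far these 4 arrays scatter, and that scatter may be technical.

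When unfolded proteins build up in the ER, the membrane sensors IRE1, PERK and ATF6 start the unfolded protein response. IRE1, encoded by Ern1, splices the messenger RNA of Xbp1, and cleaved ATF6 travels to the nucleus. Both raise chaperones and degradation genes, largely through the ER stress response element of their promoters. PERK, encoded by Eif2ak3, phosphorylates the initiation factor eIF2, which slows protein synthesis but favours translation of Atf4. This last arm is shared with kinases that sense amino acid shortage, heme and double-stranded RNA, and is called the integrated stress response. ATF4 binds the C/EBP-ATF response element in genes of amino acid supply and of feedback. Much of the pathway is controlled by splicing, cleavage and translation, which these arrays do not measure. Secretory tissues such as mammary epithelium depend on it.

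The promoters of the chaperone and Atf4-type groups carried different elements. Roles and motifs were both chosen from what is known of this pathway, so this contrast was partly built into the lists. RefSeq promoter windows (GRCm38.p6, 250 bases before to 50 after a gene start) matched 29 of the 33 members, and each was searched on both strands. The ER stress response element, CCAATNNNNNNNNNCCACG, was found in 7 of 11 chaperone genes, 2 of 5 degradation genes, 0 of 5 sensors and transcription factors and 0 of 8 Atf4-type targets, against 0.137% of all 27025 genes in the table. The C/EBP-ATF response element, TGATGNAA, was found in 5 of 8 Atf4-type targets, 1 of 5 degradation genes, 0 of 11 chaperone genes and 0 of 5 sensors and transcription factors, against 4.51% of all genes. The second form of the ER stress element, ATTGGNCCACG, was found in Dnajb11 and Herpud1 (0.0444% of all genes), and the unfolded protein response element, TGACGTGG, in 0 members (0.714% of all genes). No matches of different motifs overlapped in a member. The stretches below, read 5′ to 3′ on the strand of the gene and ending before its start, show the matches in capitals. Hspa5, Hsp90b1 and Pdia6 stand for the chaperones, Syvn1 for degradation, Herpud1 for a member with both kinds of element, and Atf3, Chac1 and Asns for the Atf4-type group. A match on the opposite strand reads as the reverse complement, as in Atf3, Chac1, Herpud1 (its first match) and Hsp90b1 (its second).
Hspa5 (chr2:34772005-34772063, plus strand): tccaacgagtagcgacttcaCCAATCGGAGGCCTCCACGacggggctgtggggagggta
Hsp90b1 (chr10:86705513-86705676, minus strand): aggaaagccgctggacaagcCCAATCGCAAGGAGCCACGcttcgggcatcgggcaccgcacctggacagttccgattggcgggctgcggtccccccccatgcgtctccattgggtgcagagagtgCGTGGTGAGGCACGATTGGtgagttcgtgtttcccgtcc
Pdia6 (chr12:17266471-17266529, plus strand): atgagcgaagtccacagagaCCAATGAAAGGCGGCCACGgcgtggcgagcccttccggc
Syvn1 (chr19:6046512-6046570, plus strand): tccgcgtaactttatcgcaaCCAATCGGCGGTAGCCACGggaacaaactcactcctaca
Herpud1 (chr8:94386297-94386407, plus strand): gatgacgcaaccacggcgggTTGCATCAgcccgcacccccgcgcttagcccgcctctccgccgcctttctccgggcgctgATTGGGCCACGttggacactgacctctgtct
Atf3 (chr1:191183416-191183463, minus strand): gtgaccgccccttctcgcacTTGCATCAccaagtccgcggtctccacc
Chac1 (chr2:119351029-119351076, plus strand): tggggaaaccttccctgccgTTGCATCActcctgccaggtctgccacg
Asns (chr6:7693210-7693252, minus strand): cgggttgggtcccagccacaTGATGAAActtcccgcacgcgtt

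Values are deposited log2 expression values, and a change is the GSK126 mean less the DMSO mean, also in log2. Array pairs correlated at 0.981 to 0.988 over all probe sets, and GSK126 replicate 1 correlated more with each DMSO array than with GSK126 replicate 2. Of 12 mammary epithelial markers, Epcam, Cdh1, Krt8, Krt18 and Cldn3 ranged from 10.4 in Epcam to 11.7 in Krt18, whereas Elf3 lay at 6.17 to 6.59 and Krt19 at 4.62 to 4.89. Ptprc, the pan-leukocyte gene, lay between 3.37 and 3.67, and Jchain, a plasma cell gene, between 2.29 and 2.79, both below 4.77, the 40th percentile of mean level, under which genes are called dim here. Of the 8 myeloid and other leukocyte markers, 5 were dim in both groups, but Cd14, the endotoxin co-receptor gene, lay at 10.5 to 10.7 with overlapping groups. Plasma cell and B cell markers, 8 of 9 measured and 5 of these dim in both groups, had a mean value of 4.65 and 4.64 in DMSO and 4.68 and 4.64 with GSK126. Of 7 myoepithelial markers 6 were measured, with a mean value of 5.42 and 5.44 in DMSO and 5.27 and 5.26 with GSK126, and 1 fell, Oxtr, the oxytocin receptor gene, named here after its values were seen. Oxtr was at 7.12 and 6.97 in DMSO and 6.35 and 6.24 with GSK126 (change -0.75, adjusted p = 0.0479 in limma), and its adjusted p was 0.176 to 0.473 in limma with any 1 array left out and 0.236 without the intensity trend. Krt14, a basal keratin, was at -0.51 (adjusted p = 0.384 in limma). The list did not fall as a whole, with 3 markers higher in mean, 3 lower and a median change of -0.01. Acta2 (0.07), Trp63 (0.12) and Cnn1 (0.18) were higher and Myh11 (-0.09) lower, and Trp63 and Cnn1 were dim in both groups. Of 8 fibroblast markers, 3 of them dim in at least 1 group, 6 were higher in mean and 2 lower. Pdgfra (0.45) and Thy1 (0.35) were at an unadjusted p under 0.05 in limma, and 0 of the 8 were with centred arrays. All 6 endothelial markers were dim in at least 1 group, with 5 higher in mean and 1 lower. Over all genes 48.0% were higher and 52.0% lower. The part of these cell types in the members' values was not tested. In bulk RNA, fewer cells of a type and less RNA per cell cannot be told apart.

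No transcript of this stress programme was called higher or lower with GSK126. Of the 33 members, 0 passed the threshold, an adjusted p of 0.05 in limma with Benjamini-Hochberg adjustment over all genes, which 96 of the 22180 genes (0.433%) did (0 to 4 genes with an array left out). At an unadjusted p under 0.05 there were 7 members (21.2%), against 10.6% of all genes. Atf6, Atf3 and Ppp1r15a were higher (4.64% of all genes) and Cebpb, Xbp1, Sdf2l1 and Syvn1 lower (5.93% of all genes). The all-gene shares include dim genes, whereas no member was dim, so they are not matched for level. With dim genes left out, limma gave 1926 of 13308 genes and the same 7 members an unadjusted p under 0.05. Leaving out DMSO replicate 1 or 2 gave 3 or 6 such members and leaving out GSK126 replicate 1 or 2 gave 4 or 2, and the count was 4 both without the intensity trend and after quantile normalization. Of all members, 22 had a lower mean with GSK126 (66.7%, against 52.0% of all genes) and 11 a higher one (48.0% of all genes). The arrays of the groups did not overlap in 15 members (45.5%, against 40.1% of all genes), 11 of them lower (21.8% of all genes) and 4 higher (18.2% of all genes). The median change was -0.06, beside -0.01 over all genes. With each array centred on its median, 75.8% of members and 61.3% of all genes were lower.

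The 95% intervals of the members reflect the scatter of these arrays, which may be technical. They therefore do not bound a treatment effect that was missed. Each interval is for its own gene, without adjustment over the members, and its width depends on the intensity trend of the fit. The standard error (SE) of a member's change lay between 0.08 and 0.16, and the 95% interval stayed within a 2-fold change in either direction for all 33 members and within 1.5-fold for 30. The exceptions were Atf3 (bound 1.64-fold), Ppp1r15a and Derl3. No member was dim in either group, but Derl3, at 4.78 and 4.80 with GSK126, lay just above the cut of 4.77. The Derl3 change of -0.23 was -0.08 without DMSO replicate 1 and -0.39 without DMSO replicate 2. The members' changes ran from -0.35 for Cebpb to 0.40 for Atf3, while the gap between the DMSO arrays had a median of 0.12 and reached 0.34 in Atf5.

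**Figure D1:**
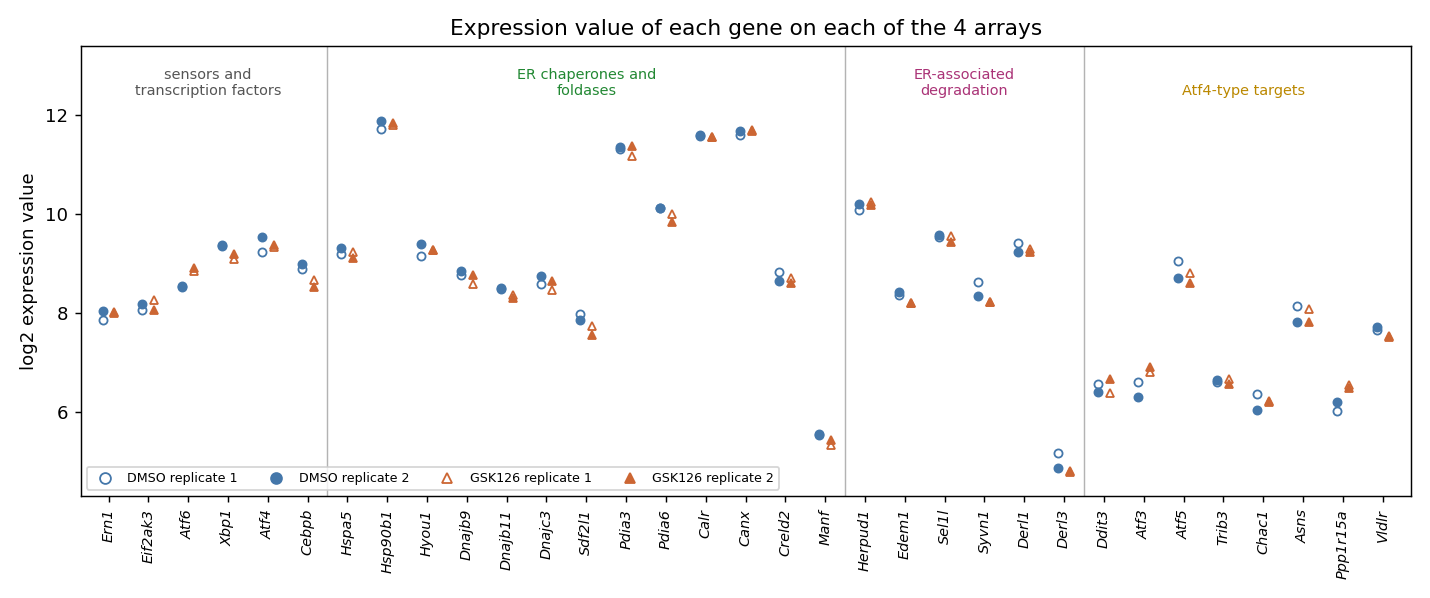
Log2 expression value (vertical axis) of each of the 33 members (horizontal axis, by role) on the DMSO arrays (circles) and the GSK126 arrays (triangles). Atf6, Atf3 and Ppp1r15a have both GSK126 arrays above both DMSO arrays, while Atf4, Chac1 and Asns overlap. Values of different genes come from different probes and are not comparable as amounts.

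Among the sensors Atf6, Ern1 and Eif2ak3, only Atf6 had groups that did not overlap, as in 40.1% of all genes. The sensors were not tested against each other. Atf6, the sensor that becomes a transcription factor on cleavage, was at 8.52 and 8.55 in DMSO and at 8.85 and 8.90 with GSK126. Both treated arrays lay above both controls, with a difference of 0.34 (SE 0.08, 1.26-fold) and the smallest p of all members (unadjusted p = 0.00398 in limma), but the adjusted p was 0.218. Ern1 was at 7.87 and 8.05 in DMSO and 8.03 and 7.999 with GSK126, so the treated values lay inside the control range. Eif2ak3 was at 8.07 and 8.18 in DMSO and 8.27 and 8.07 with GSK126, which also overlapped.

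Of the transcription factors downstream of these sensors, Cebpb and Xbp1 lay lower without overlap, as did 21.8% of all genes. Atf4 lay near 0. Cebpb, which encodes a partner of ATF4 and many other factors, was at 8.90 and 8.99 in DMSO and at 8.67 and 8.52 with GSK126. The treated values were both lower, by 0.35 (SE 0.09, 1.27-fold lower, adjusted p = 0.259 in limma). Xbp1, whose spliced messenger encodes the factor of the IRE1 arm, was at 9.38 and 9.35 in DMSO and 9.10 and 9.20 with GSK126, again without overlap (change -0.22, SE 0.08, adjusted p = 0.428 in limma). These array values sum over the gene and do not separate spliced from unspliced Xbp1. Atf4 was at 9.23 and 9.53 in DMSO and 9.34 and 9.37 with GSK126. The treated values fell between the controls, and the change of -0.03 had a 95% interval from -0.28 to 0.23.

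Of the 13 ER chaperones and folding enzymes, 10 lay slightly lower in mean with GSK126 (76.9%, against 52.0% of all genes). In limma 0 passed the threshold, and 1, Sdf2l1, was at an unadjusted p under 0.05 (7.69%, against 10.6% of all genes). The median change of the 13 was -0.09 and the changes ran from -0.27 to 0.05. Leaving out DMSO replicate 1 or 2 gave a median of -0.14 or -0.05, and leaving out GSK126 replicate 1 gave -0.034. Hspa5, the central ER chaperone BiP, was at 9.20 and 9.31 in DMSO and at 9.23 and 9.12 with GSK126. The groups overlapped, and the change of -0.08 (SE 0.09) had a 95% interval from -0.29 to 0.13. Its partners varied more. Sdf2l1, which works with Hspa5 and Dnajb11, was at 7.98 and 7.85 in DMSO and 7.74 and 7.55 with GSK126, a non-overlapping difference of -0.27 (SE 0.11, adjusted p = 0.430 in limma). The change was -0.16 for the co-chaperone Dnajb11, -0.13 for Dnajb9 and -0.10 for Dnajc3, of which only Dnajb11 had groups that did not overlap. Hyou1, which exchanges the nucleotide of Hspa5, was at 9.15 and 9.39 in DMSO and 9.28 and 9.29 with GSK126, inside the control range.

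Of the chaperones outside this complex, Hsp90b1, the HSP90 protein of the ER, was at 11.7 and 11.9 in DMSO and 11.8 on both GSK126 arrays. Canx and Calr, the lectin chaperones that hold glycoproteins, had changes of 0.05 and -0.03 with SEs of 0.08. Their groups did not overlap, Canx higher and Calr lower, although these are differences of a few hundredths. Of the disulfide isomerases, Pdia6 was at 10.1 on both DMSO arrays and at 10.01 and 9.85 with GSK126 (change -0.20, SE 0.09, adjusted p = 0.483 in limma), and Pdia3 had a change of -0.06 with overlapping groups. Creld2 (-0.09) and Manf (-0.16), small proteins induced by ER stress, did not pass, and only Manf had groups that did not overlap. The direction of Hsp90b1 and Hyou1, each at 0.01, turned to lower with centred arrays. With centred arrays 12 of the 13 chaperones lay lower (61.3% of all genes), and after quantile normalization 11 did (52.0% of all genes).

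ER-associated degradation returns misfolded proteins to the cytosol. Of its 6 genes, 5 were lower in mean (83.3%, against 52.0% of all genes). Their median change was -0.13, and 0 of the 6 passed the limma threshold. Syvn1, the ubiquitin ligase HRD1, was at 8.64 and 8.35 in DMSO and at 8.23 and 8.22 with GSK126. The groups did not overlap (change -0.27, SE 0.11, adjusted p = 0.455 in limma), but the DMSO arrays differed from each other by more than the change. Without DMSO replicate 1 the change was -0.13, and without DMSO replicate 2 it was -0.41. Edem1, a lectin-like protein that routes glycoproteins to degradation, was at 8.37 and 8.43 in DMSO and 8.21 and 8.20 with GSK126 (change -0.19, SE 0.09, adjusted p = 0.482 in limma). A second, dim probe set of Edem1 gave -0.01 (SE 0.21), and Edem1 was the only member with several probe sets. Sel1l, the partner of Syvn1, had a change of -0.06, and the channel proteins Derl1 and Derl3 had changes of -0.06 and -0.23, with SEs of 0.08, 0.09 and 0.16. Herpud1, a scaffold of the same complex and an ATF4 and ATF6 target, was at 10.1 and 10.2 in DMSO and 10.2 on both GSK126 arrays.

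**Figure D2:**
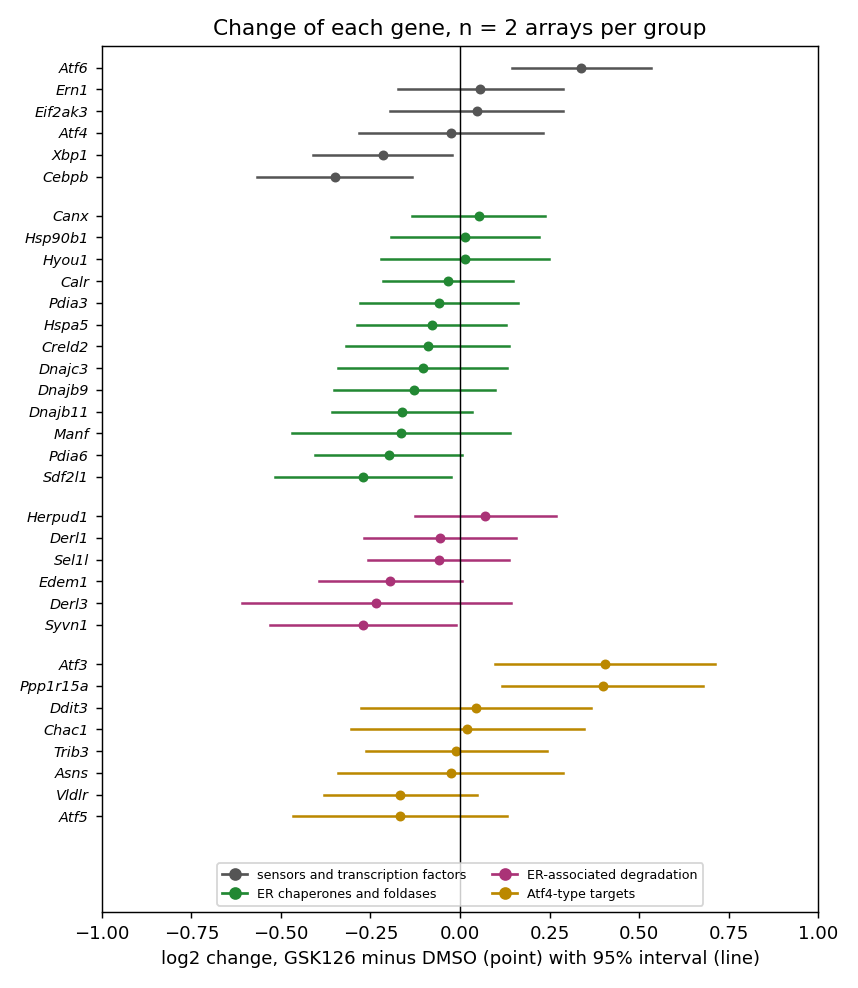
Log2 change, GSK126 minus DMSO (horizontal axis), of each member with its 95% interval from limma, coloured by role (n = 2 arrays per group). The intervals of 26 members span 0, and those of Atf6, Cebpb, Xbp1, Sdf2l1, Syvn1, Atf3 and Ppp1r15a do not, before adjustment over all genes.

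The Atf4-type targets split, with 2 members higher and the rest near or below 0. Atf3, a stress-induced transcription factor, was at 6.61 and 6.31 in DMSO and 6.81 and 6.91 with GSK126. The treated arrays lay above the controls by 0.40 (SE 0.13, 1.32-fold, adjusted p = 0.351 in limma), and the difference was 0.25 without DMSO replicate 2 and 0.56 without DMSO replicate 1. Ppp1r15a, which encodes GADD34, the phosphatase subunit that reverses eIF2 phosphorylation, was at 6.02 and 6.21 in DMSO and 6.55 and 6.48 with GSK126. It was higher on both treated arrays, by 0.40 (SE 0.12, 1.32-fold, adjusted p = 0.312 in limma). Both genes are also immediate early genes that respond to signals outside this pathway.

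The other 6 members of this group lay near or below 0. Ddit3, which encodes the pro-apoptotic factor CHOP, was at 6.57 and 6.40 in DMSO and 6.38 and 6.68 with GSK126, overlapping widely (change 0.04, SE 0.14). Trib3, a pseudokinase induced by ATF4 and CHOP, was at 6.61 and 6.65 in DMSO and 6.68 and 6.56 with GSK126. Chac1, which degrades glutathione, was at 6.37 and 6.04 in DMSO and 6.23 and 6.21 with GSK126. The changes of Trib3 and Chac1 were -0.01 and 0.02, and their signs turned between scalings, as did those of Atf4 and Asns. Asns, the asparagine synthetase, was at 8.14 and 7.83 in DMSO and 8.09 and 7.83 with GSK126, so replicates differed by far more than treatments. Atf5, a factor translated under eIF2 phosphorylation, had a change of -0.17 (SE 0.13) with overlapping groups, which was 0.0010 without DMSO replicate 1 and -0.34 without DMSO replicate 2. The lipoprotein receptor gene Vldlr had -0.17 (SE 0.09) without overlap. In all, 4 of the 8 were higher in mean (48.0% of all genes) and 4 lower (52.0% of all genes), with a median of 0.01.

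The chaperones were then set against the Atf4-type targets. The mean over the 13 chaperones was 9.457 and 9.499 on the DMSO arrays and 9.381 and 9.388 on the GSK126 arrays, a change of -0.09 without overlap. The mean over the 8 Atf4-type targets was 7.13 and 6.98 on the DMSO arrays and 7.13 and 7.10 on the GSK126 arrays, a change of 0.06, with 1 DMSO array inside the treated range. The Atf4-type mean minus the chaperone mean was -2.33 and -2.52 in DMSO and -2.25 and -2.29 with GSK126. It was thus higher on both treated arrays, by 0.16, while the DMSO arrays differed by 0.19. Only its change between arrays can be read, since levels of different probes are not comparable. The difference between the 2 medians of change was 0.10, and it was 0.27 without DMSO replicate 1 and -0.04 without DMSO replicate 2, so its sign turned when that array was left out. The mean over 12 mammary epithelial markers moved on the same scale as the chaperones, from 9.654 and 9.715 in DMSO to 9.631 and 9.615 with GSK126. These 12 did not share a direction, with 7 lower in mean and 5 higher, from -0.32 for Elf3 to 0.39 for Cldn4 (median -0.10). The part of this mean in the result was not tested. Atf3 and Ppp1r15a were the 2 members above 0.05 in the Atf4-type group.

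**Figure D3:**
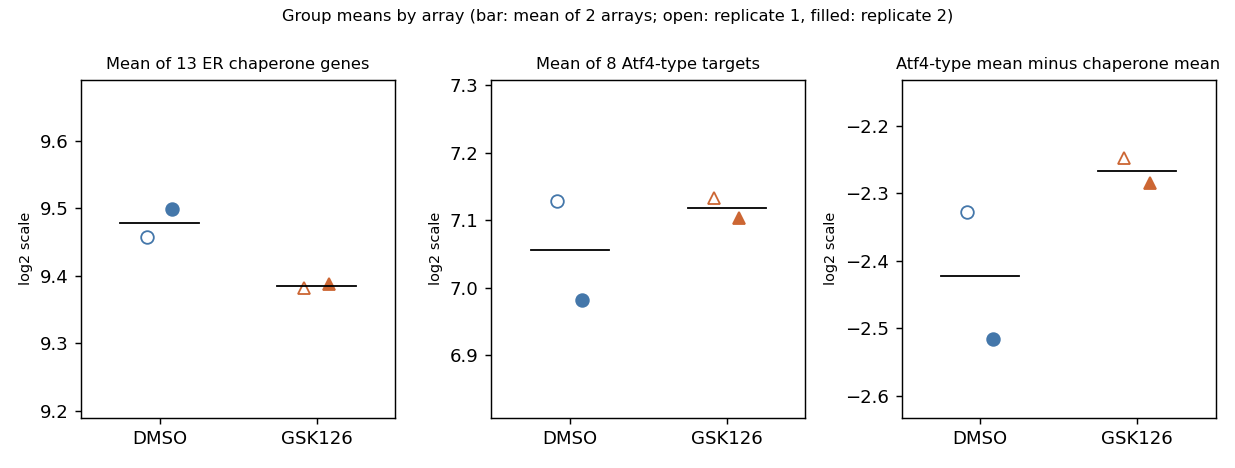
Mean log2 value of the 13 ER chaperones (left), of the 8 Atf4-type targets (middle) and the second minus the first (right) on each array, with vertical axes of equal span. Bars mark the mean of 2 arrays, and the DMSO arrays are further apart than the GSK126 arrays in all 3 panels.

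The changes were also read by promoter element. Over the 9 members with an ER stress response element the median change was -0.09, with 7 lower in mean. All 29 measured genes with such an element include these 9, so their median of -0.07 is not independent. Of the 29, 17 were lower in mean (58.6%), against 52.8% of measured genes with a promoter window. Members make up 7 of these 17, so this share is not independent either. Of these 29, 0 passed the limma threshold and 2 were at an unadjusted p under 0.05 (6.90%). The 16990 measured genes with a promoter window had a median of -0.01, and 10.5% of them were at an unadjusted p under 0.05. Over the 6 members with a C/EBP-ATF response element the median was 0.01. Over all 666 measured genes with that element, these 6 among them, it was 0.01. Of the 7 members at an unadjusted p under 0.05, Syvn1 had the ER stress response element and Atf3 the C/EBP-ATF response element. The windows of Xbp1, Cebpb, Sdf2l1 and Ppp1r15a held no match to these letters, and Atf6 had no window in the table.

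The wider pathway held 1 gene past the threshold. Of 27 further targets of ATF4 and CHOP, 19 were lower in mean (70.4%, against 52.0% of all genes), with a median of -0.09. At an unadjusted p under 0.05 in limma, 2 were higher (4.64% of all genes) and 5 lower (5.93% of all genes). Of the 27, 1 passed the threshold (0.433% of all genes), and it fell. Psat1, an enzyme of serine synthesis, was at 8.49 and 8.48 in DMSO and at 7.72 and 7.78 with GSK126, a decrease beyond the spread of the arrays (1.67-fold lower, change -0.74, SE 0.09, adjusted p = 0.0240 in limma). The call needed all 4 arrays: leaving out DMSO replicate 1 or 2 gave an adjusted p of 0.203 or 0.190 in limma, and leaving out GSK126 replicate 1 or 2 gave 0.169 or 0.375. Without the intensity trend it was 0.224. Slc7a5, the large neutral amino acid transporter, was at 11.03 and 10.88 in DMSO and 10.4 and 10.2 with GSK126. Its change of -0.64 just missed the threshold (SE 0.10, adjusted p = 0.0506 in limma; 0.0226 to 0.541 over the alternatives), and the cystine transporter gene Slc7a11 was at -0.48 (adjusted p = 0.205 in limma), or -0.31 as the average of its probe sets. Nupr1, a stress-induced chromatin protein, lay on the other side, at 0.38 (SE 0.09, adjusted p = 0.194 in limma). Asns, the member that also serves amino acid supply, was at -0.03.

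No other pathway list had a gene past the limma threshold in the main fit. Among 12 genes of eIF2 control the median was -0.04. At an unadjusted p under 0.05, 0 were higher (4.64% of all genes) and 1 was lower (5.93% of all genes). The lower one was Ppp1r15b, the constitutive counterpart of Ppp1r15a, at -0.28 (SE 0.11). Its change was -0.14 without GSK126 replicate 2 and -0.41 without GSK126 replicate 1. Among 16 other regulators the median was -0.01, with 2 lower and 0 higher on the same criterion, Nfyc (-0.27), a subunit of the factor that binds the CCAAT part of the ER stress element, and Cebpg (-0.24), a partner of ATF4. Among 25 further ER folding genes the median was -0.04, with 3 higher (4.64% of all genes) and 4 lower (5.93% of all genes) on that criterion. Nucb2, a calcium-binding protein, was highest at 0.55 (SE 0.10, adjusted p = 0.0822 in limma), followed by Ero1a, the oxidase that recharges disulfide isomerases, at 0.31, while the glucosidase gene Mogs was at -0.34 and Txndc11 at -0.31.

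Genes of the secretory route beyond folding gave no call either. The median was -0.09 over 22 genes of ER to Golgi transport, 16 of them lower in mean (72.7%, against 52.0% of all genes). At an unadjusted p under 0.05, 0 were higher (4.64% of all genes) and 3 were lower (5.93% of all genes). They were Kdelr2, the receptor that returns ER residents (-0.44, SE 0.12, adjusted p = 0.275 in limma), the coat gene Sec23a (-0.24) and the cargo receptor gene Surf4 (-0.21). The median was -0.05 both over 24 genes of ER import and glycosylation, with Sec62 the only one at an unadjusted p under 0.05 (0.23), and over 17 further degradation genes, where limma gave 0 genes an unadjusted p under 0.05. Stress programmes of other compartments served as comparison. The cytosolic heat shock list had a median of -0.03 over 13 genes, with Hspa4l at 0.37 and Bag3 at -0.25, and mitochondrial chaperones and proteases had a median of -0.04 over 14, where limma also gave 0 genes an unadjusted p under 0.05. After quantile normalization the medians of eIF2 control, further degradation, heat shock and mitochondrial genes were slightly above 0, and those of ER to Golgi transport and ER import were -0.03 and -0.02.

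**Figure D4:**
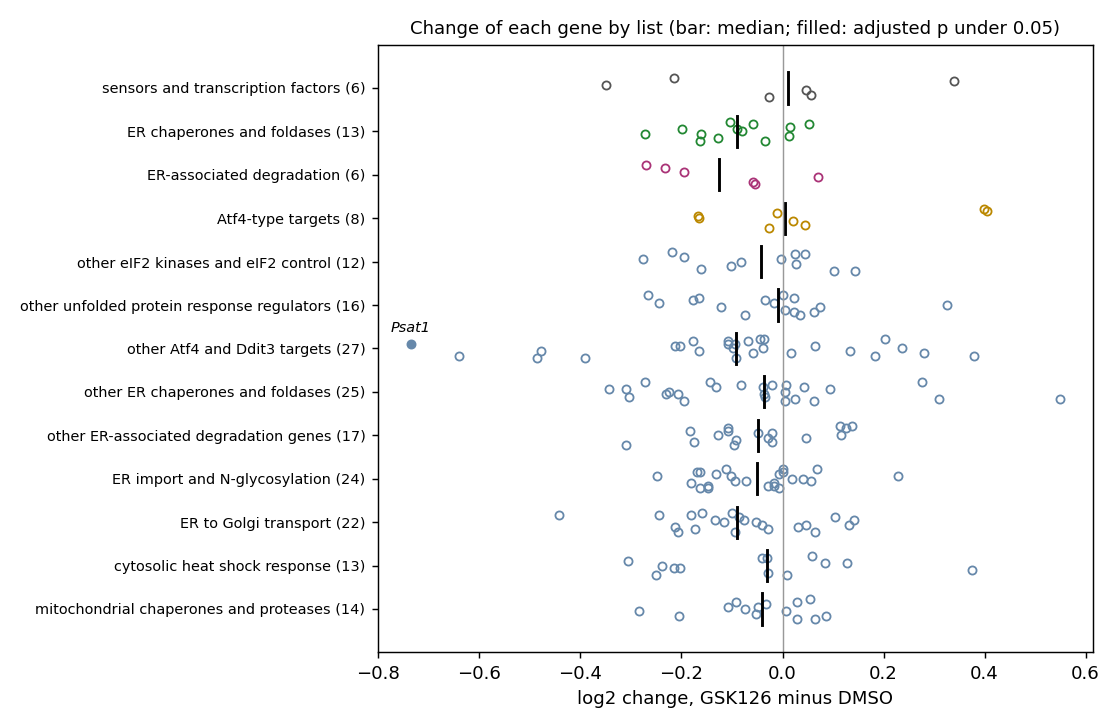
Log2 change, GSK126 minus DMSO (horizontal axis), of every gene in the 4 member groups and the 9 other lists, with the number measured in parentheses and a bar at the median. Only Psat1 is filled, as the gene past an adjusted p of 0.05, and the medians of all 13 lists lie between -0.13 and 0.01.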

How the data were processed

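The authors deposited log2 expression values that, per the labels, came from a core-exon RMA (robust multi-array average) run in Expression Console; Affymetrix Power Tools is listed in the submitters' processing notes. Genome build and versions are not given in the sources used here. Of 41345 probe sets, 23521 carried 1 symbol, 1814 several and 16010 none, and 22180 genes were tested in limma 3.58.1 (R 4.3.3) with an intensity trend, without covariates and with no filter on dim genes. Arrays have no counting depth, and their number (n = 2 per group, 2 residual and 5.57 prior degrees of freedom) limits the precision. The fit was tested on simulated data. All measured members are named, with up to 4 genes of smallest p from each other list, and Ezh2 and Erbb2 (changes -0.19 and -0.15, neither past the threshold). Members, lists and motifs were chosen with earlier results of these data known. Promoter windows are RefSeq's (GRCm38.p6). Alternatives covered the prior, dim genes, probe sets, scaling, the replicate number and leaving out each array. Protein sequences were not used here.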

Additional observations from a re-analysis of the deposited data

How the results depend on the processing

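Of the 33 members, 0 passed the limma threshold under each of 11 alternatives, where 2 to 9 had an unadjusted p under 0.05 and the smallest adjusted p was 0.140, for Atf6. The sign of 12 members changed under at least 1 alternative. The count of all genes past the threshold was 96, and became 0 in limma without the intensity trend (1964 at an unadjusted p under 0.05), 0 when each of the 41345 probe sets was its own test (2921), 149 without dim genes and 0 to 4 with an array left out (1771 to 2100 with unadjusted p under 0.05). Samples with the same replicate number did not deviate together (correlation -0.03), and the number alone does not pair them. With the replicate number as a block, 10 genes and 0 members passed in limma, with 6 members at an unadjusted p under 0.05, and Psat1 and Oxtr lost their calls (adjusted p = 0.118 and 0.144 in limma). The 4 members lower at an unadjusted p under 0.05 became 1 without the trend, 1 after quantile normalization and 0 to 4 without an array, and the 3 higher ones became 2 in each fit without an array. The chaperone median of -0.09 moved to -0.13 with centred arrays, while the median over all genes moved from -0.01 to -0.05. After quantile normalization the chaperone median was -0.06. With an array left out, the medians ran from -0.14 to -0.034 for chaperones, -0.16 to -0.08 for degradation, -0.090 to 0.13 for Atf4-type targets and -0.10 to 0.11 for sensors and transcription factors, and the Atf4-type minus chaperone difference from -0.044 to 0.27. The causes were not tested. For genes outside the member list, the alternatives were chosen after seeing the data.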
